A study of Mus musculus with 2 samples.

Results

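The genes described here are 9 of the 32285 genes in the deposited matrices: *Apoa1*, *Apoa4*, *Apob*, *Apoc2*, *Apoc3*, *Fabp1*, *Fabp2*, *Rbp2* and *Mttp*. They were chosen by name for their roles in the uptake and export of dietary lipid, and all 9 were present in both matrices. The study compared 2 droplet libraries, each pooled from 3 mice whose cells could not be separated, since all barcodes of a library carried 1 suffix. The polyp library came from polyps of Lkb1flox/+;Myh11-Cre/ERT2 mice, which carry 1 floxed and 1 intact allele of *Lkb1*. The normal library came from duodenum of Lkb1+/+;Myh11-Cre/ERT2 mice, so both groups carried the Cre. Myh11-Cre/ERT2 is a ligand-inducible Cre recombinase driven by the promoter of smooth-muscle myosin, which is not an epithelial promoter. The dosing, age and sex of the mice were not given in the sources used here. The study design named polyps without a site while both tissue labels said duodenum, so where the polyps had grown is not known from the labels.

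Enterocytes of the small intestinal villus take up fatty acids, monoglycerides, cholesterol and retinol from digested food. Inside the cell, FABP1 and FABP2 carry fatty acids and RBP2 carries retinol to the endoplasmic reticulum, where triglyceride and retinyl esters are rebuilt. The microsomal transfer protein encoded by *Mttp* loads this lipid onto apolipoprotein B, and the resulting chylomicron leaves the cell with further apolipoproteins on its surface. Enterocytes arise from crypt stem cells, which in the mouse express *Olfm4*, and mature while they move up the villus.

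Of 9950 barcodes in the normal library and 14327 in the polyp library, 3252 (32.7%) and 8460 (59.0%) passed the filters on UMIs (unique molecular identifiers, counted molecules), genes and mitochondrial share, and 3167 and 7887 were kept after doublet removal. Epcam-positive cells, with at least 1 UMI of the epithelial adhesion gene *Epcam*, numbered 1286 (median 4924.5 UMIs) and 4493 (median 6241 UMIs), with 15929174 and 43796448 UMIs in all. Cells of epithelial clusters made up 47.8% of the Epcam-positive cells and 79.7% of their UMIs in the normal library, and 70.6% and 91.8% in the polyp library. The cell types behind the Epcam gate differed, counting markers past 1.5-fold with an interval clear of 1. All 10 of 10 enterocyte markers were lower in the polyp library, with summed levels of 1771 and 40.4 UMIs per 1000000 UMIs (CPM). All 5 of 5 gastric-surface markers were higher, with 4689 and 66682 CPM. By the same rule, 18.7% of the 14594 genes with at least 20 UMIs were lower and 27.1% were higher. The libraries shared 44 barcodes, of which 9 were kept in both. With 1 library per group there was no replicate, no test was run, and the intervals given (95%) cover counting error only, not differences between mice, tissue pieces or library preparations.

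The genes lie on 5 chromosomes of the mouse genome GRCm38. *Apoa1* (chr9:46228580-46230466, plus strand), *Apoc3* (chr9:46232933-46235636, minus strand) and *Apoa4* (chr9:46240696-46243459, plus strand) sit within 14880 bp of each other. *Rbp2* (chr9:98486115-98509781) is on the same chromosome but far from them. *Fabp1* is at chr6:71199827-71205023 and *Apob* at chr12:7977648-8016835. *Fabp2* (chr3:122895072-122899506) and *Mttp* (chr3:138089854-138144968, minus strand) share chromosome 3. *Apoc2* (chr7:19671579-19677941, minus strand) overlaps the gene model Gm44805 on the same strand, and its UMIs cannot be told apart from those of that model in the overlap. The same holds for *Rbp2* and the model Gm37113. Antisense models overlap *Apoa4*, *Fabp2* and *Mttp*, and the protein-coding gene *Trmt10a* overlaps *Mttp* on the other strand. The sources used here do not say how strand was used in counting.

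HNF4 factors are nuclear receptors known to act on lipid genes of enterocytes, and the letters CAAAGNNCA resemble the core of their binding sequence. These letters were searched on both strands in the 250 bases before the RefSeq start of each gene, and 8 of the 9 genes had an entry. The motif was present in 4 of these 8 windows, against 5.49% of all 32851 RefSeq promoter windows of the same length. The searched windows could hold annotated exon bases, and that of *Mttp*, which had no match, began inside an exon of its gene. The GATA letters TGATAA were in 1 of 8 (*Apoc2*; 7.94% of all windows), the CDX letters TTTATG in 1 of 8 (*Fabp1*; 10.8%) and the TATA letters TATAAA in 3 of 8 (*Apob*, *Fabp1* and *Rbp2*; 12.4%), and none of the HNF4-type matches in these genes overlapped a match of the other motifs. The 4 stretches with the HNF4-type letters follow, from RefSeq on GRCm38.p6, read 5′ to 3′ on the plus strand, which is the strand of all 4 genes, and ending before the first annotated exon base, with the match in capitals on either strand. *Rbp2* (chr9:98490287-98490536) held 2 copies, starting 101 and 58 bases before the RefSeq start, which lies inside the longer gene model above. *Fabp2* (chr3:122894822-122895071) held 1 copy at 137 bases, *Apob* (chr12:7977427-7977647) 1 at 103 bases and *Apoa4* (chr9:46240594-46240695) 1 at 182 bases. A match is a description of letters and was not tied to binding here.
Rbp2: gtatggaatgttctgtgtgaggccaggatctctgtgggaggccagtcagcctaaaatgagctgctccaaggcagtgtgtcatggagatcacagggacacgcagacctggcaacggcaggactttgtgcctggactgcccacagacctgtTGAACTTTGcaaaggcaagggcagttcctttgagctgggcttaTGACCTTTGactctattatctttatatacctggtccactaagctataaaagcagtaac
Fabp2: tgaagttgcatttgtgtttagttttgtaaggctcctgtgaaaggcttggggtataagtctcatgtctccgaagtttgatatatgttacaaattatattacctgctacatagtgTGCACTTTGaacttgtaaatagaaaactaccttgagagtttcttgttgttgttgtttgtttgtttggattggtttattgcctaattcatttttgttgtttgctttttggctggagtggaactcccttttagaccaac
Apob: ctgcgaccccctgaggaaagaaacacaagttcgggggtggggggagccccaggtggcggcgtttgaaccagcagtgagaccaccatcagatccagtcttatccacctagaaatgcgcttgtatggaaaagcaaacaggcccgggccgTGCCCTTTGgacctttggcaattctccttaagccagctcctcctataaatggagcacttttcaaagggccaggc
Apoa4: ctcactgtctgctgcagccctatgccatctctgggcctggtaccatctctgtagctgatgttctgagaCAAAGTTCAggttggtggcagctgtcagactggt

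All 9 genes were lower in Epcam-positive cells of the polyp library, past 1.5-fold with an interval clear of 1, as were 18.7% of the 14594 genes with at least 20 UMIs, while 27.1% of those genes were higher. All 9 were also lower past 10-fold, against 3.75% of all genes. Their median log2 ratio, polyp over normal, was -7.18, beside 0.14 over all genes. Summed over the 9 genes, the level was 23543 CPM among normal Epcam-positive cells, against 367 CPM among polyp ones. In summed counts, fewer enterocytes and less RNA per enterocyte cannot be told apart, and enterocyte-like cells numbered 201 in the normal and 2 in the polyp library.

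The intracellular carriers differed widely from each other in how far down they were. *Fabp1*, the liver-type fatty acid binding protein that is also made in the proximal intestine, had 7709 CPM (7666–7752) among normal Epcam-positive cells against 3.63 CPM (3.09–4.24) among polyp ones, 2123-fold lower (1818–2497). *Fabp2*, the intestinal fatty acid binding protein, had 5129 CPM (5094–5164) and 79.3 CPM (76.7–82.0), 64.7-fold lower (62.5–66.9). *Rbp2*, the cellular retinol binding protein of the intestine, stood at 5808 CPM (5771–5846) and 256 CPM (251–260), 22.7-fold lower (22.3–23.2). The interval of *Fabp1* did not overlap those of the other carriers. With each cell's CPM averaged instead of counts summed, the fold of *Fabp1* was 695.

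The pair that assembles the particle was split in the same way. *Apob*, the gene of the structural protein of chylomicrons, had 140 CPM (134–146) among normal cells against 13.7 CPM (12.6–14.8) among polyp cells, 10.2-fold lower (9.33–11.2), the smallest of the 9 differences. *Mttp*, whose product loads lipid onto apolipoprotein B, was at 328 CPM (319.5–337) and 2.26 CPM (1.84–2.75), 145-fold lower (119–179), and 60.6-fold lower with cells averaged.

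Of the surface apolipoproteins, *Apoa4* and *Apoc3* had the lowest polyp levels of all 9 genes. *Apoa4*, an apolipoprotein of newly made chylomicrons, had 645 CPM (633–658) among normal cells and 14 UMIs in the polyp, 0.3197 CPM (0.175–0.536). *Apoc3*, an inhibitor of lipoprotein lipase, was at 351 CPM (341.5–360) and had 10 UMIs, 0.228 CPM (0.110–0.420). *Apoc2*, the activator of lipoprotein lipase, was at 648 CPM (635.5–661) and 6.03 CPM (5.32–6.80), 108-fold lower (95.1–122). *Apoa1*, the main protein of high-density lipoprotein, was at 2785 CPM (2759–2811) and 6.26 CPM (5.54–7.04), 445-fold lower (395–503). The folds of *Apoa4* and *Apoc3* were 2019 (1203–3694) and 1536 (834–3204), and rested on few polyp UMIs. With cells averaged the folds were 529 for *Apoa4*, 385 for *Apoc3*, 183 for *Apoa1* and 70.2 for *Apoc2*. A single polyp cell held 137 of the 329 *Apoa1* UMIs in all kept polyp cells, and without it *Apoa1* was 890-fold lower.

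**Figure D1:**
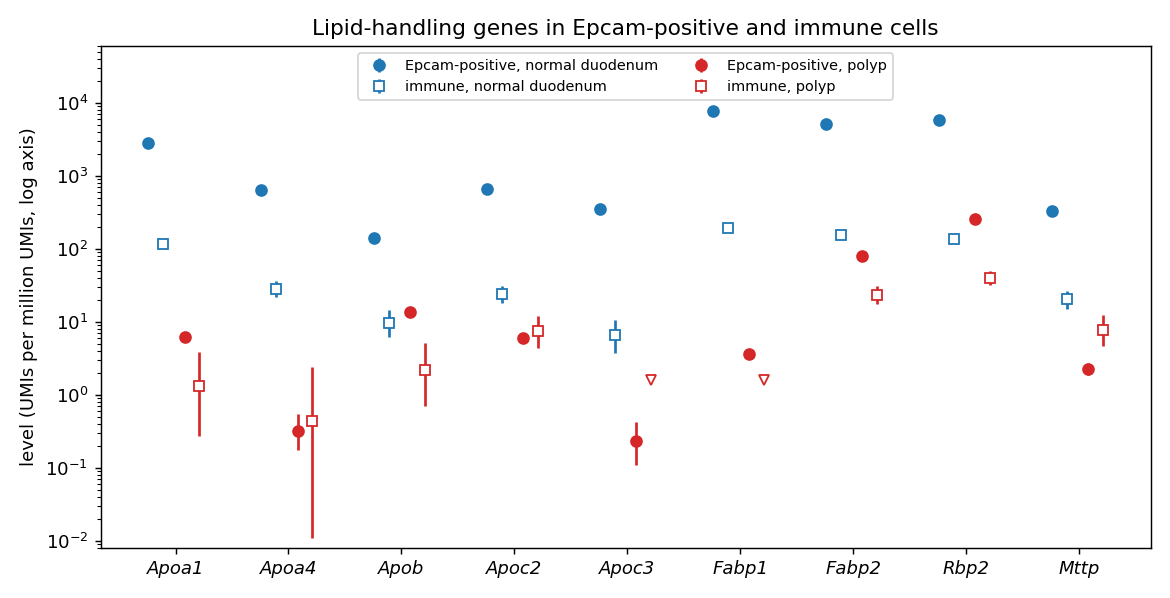
Level of each gene (CPM, log axis) in Epcam-positive cells (filled circles) and in immune cells (Ptprc-positive, Epcam-negative; open squares) of the normal (blue) and polyp (red) library; bars are 95% counting intervals and triangles mark the upper end of the interval where 0 UMIs were counted. Every gene was lower in the polyp than in the normal Epcam-positive cells, while *Mttp* and *Apoc2* stood higher in polyp immune cells (7.80 and 7.36 CPM) than in polyp Epcam-positive cells (2.26 and 6.03 CPM), as did *Apoa4* (0.433 and 0.3197 CPM) from 1 immune UMI. Polyp immune cells were shallower than polyp Epcam-positive cells (median 2130 and 6241 UMIs).

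To compare shares of cells at equal depth, each cell was thinned to 1000 UMIs, which left out 297 normal and 566 polyp Epcam-positive cells. *Fabp2* was then seen in 50.4% (47.2–53.5) of normal and 4.79% (4.14–5.50) of polyp Epcam-positive cells, and *Rbp2* in 45.3% (42.2–48.5) and 11.3% (10.3–12.3). *Fabp1* was seen in 494 of 989 normal cells and in 0.458% (0.272–0.724) of polyp cells. *Apoa1* was seen in 36.0% and 0.331%, *Apoa4* in 19.9% and 0.0764%, *Mttp* in 18.8% and 0.458%, *Apoc2* in 18.4% and 0.560%, *Apoc3* in 14.5% and 0.102%, and *Apob* in 10.6% and 1.73%. The interval of the polyp share lay below that of the normal share for all 9 genes, also in unthinned cells, where for example *Rbp2* was seen in 75.0% and 31.4%, and *Fabp1* in 81.6% and 1.40%.

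T-cell-like cells, which should lack all these transcripts, carried them too in the normal library. At the same 1000 UMIs, *Fabp1* was seen in 19.9% (17.2–22.9) of normal T-cell-like cells, *Fabp2* in 17.2%, *Apoa1* in 14.9% and *Rbp2* in 13.7%. *Apoc2* (3.19%), *Apoa4* (3.07%), *Mttp* (1.66%), *Apob* (1.41%) and *Apoc3* (0.766%) were seen in fewer. The median depth before thinning was 3175 UMIs in normal and 1933 in polyp T-cell-like cells. In polyp T-cell-like cells *Rbp2* reached 4.54% (3.16–6.29), *Fabp2* 1.20% (0.551–2.27) and *Mttp* 0.534%, beside 0.458% for *Mttp* in polyp Epcam-positive cells. *Apob* and *Apoc2* were seen in 0 of 749 polyp T-cell-like cells, where 3 cells would be 0.401% and the upper end of the interval is 0.491%. Without thinning they were seen in 4 and 1 of the 819 cells.

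The level of free RNA was read from immune cells with a *Ptprc* UMI and no *Epcam* UMI, 624 in the normal and 817 in the polyp library (median 3183 and 2130 UMIs). In normal immune cells *Fabp1* stood at 194 CPM (177–213), *Fabp2* at 153 CPM (138–169), *Rbp2* at 137 CPM (123–153) and *Apoa1* at 115 CPM (102–129). *Apoa4* was at 28.3 CPM, *Apoc2* at 23.8 CPM, *Mttp* at 20.2 CPM, *Apob* at 9.70 CPM and *Apoc3* at 6.47 CPM. These levels were between 1.84% (*Apoc3*) and 6.94% (*Apob*) of those in normal Epcam-positive cells, so all 9 genes stood far above the immune level in the normal epithelium.

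In polyp immune cells the picture differed by gene. *Rbp2* was at 39.9 CPM (32.1–48.9) and *Fabp2* at 23.4 CPM (17.6–30.5), which is 15.6% and 29.5% of their polyp Epcam-positive level. *Apob* was at 2.17 CPM and *Apoa1* at 1.30 CPM, from 5 and 3 UMIs. *Fabp1* and *Apoc3* had 0 UMIs, where 3 UMIs would be 1.30 CPM. *Mttp* stood at 7.80 CPM (4.62–12.3) in polyp immune cells, above its 2.26 CPM in polyp Epcam-positive cells, and *Apoc2* at 7.36 CPM (4.29–11.8), with an interval that held its Epcam-positive level of 6.03 CPM. *Apoa4* had 1 immune UMI. The summed level of the 9 genes in immune cells was 688 CPM (656–722) in the normal and 82.3 CPM (71.0–94.9) in the polyp library, so the free RNA level also differed between the libraries.

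The mix of these transcripts in normal cells that should lack them was not that of enterocyte-like cells. *Fabp1* outnumbered *Apoa1* 2.62 to 1 in enterocyte-like cells, but 1.60 to 1 in T-cell-like, 1.66 to 1 in plasma-like, 1.24 to 1 in acinar-like and 1.17 to 1 in fibroblast-like cells. In low-depth barcodes led by rRNA-repeat genes the ratio was 3.84 to 1, and in Epcam-positive barcodes over the mitochondrial limit 0.576 to 1.

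Within the normal library all 9 genes were highest in the enterocyte-like cluster, whose 201 cells had a median of 25208 UMIs. The members were left out of the genes used for clustering, but enterocyte genes that move with them were used, so this is a description. *Fabp1* reached 22444 CPM there, with a 10th percentile of 6438, a median of 20269 and a 90th percentile of 37456 CPM over cells. *Rbp2* reached 16683 CPM, *Fabp2* 14696 CPM, *Apoa1* 8573 CPM, *Apoa4* 2002 CPM, *Apoc2* 2000 CPM, *Apoc3* 1066 CPM, *Mttp* 860 CPM and *Apob* 342 CPM. The enterocyte-like cluster and the cluster led by *Olfm4* (263 normal cells, left unnamed because too few crypt markers met the rule) together held between 88.2% (*Apob*) and 94.3% (*Apoa1*) of the normal UMIs of each gene.

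Secretory cells of the normal library carried some members above the free RNA level. Goblet-like cells (75) had 1081 CPM of *Fabp2* (1019–1145), against 153 CPM in immune cells, but 121 CPM of *Fabp1* and 91.2 CPM of *Rbp2*, which were at or below the immune levels. A small enteroendocrine-like cluster led by *Reg4* (25 cells) had 632 CPM of *Apoc2* (523–758) and 394.5 CPM of *Apoc3* (309–496), against 23.8 and 6.47 CPM in immune cells. The same cluster had 643 CPM of *Fabp1*, 567 CPM of *Rbp2*, 492 CPM of *Apoa1* and 151 CPM of *Fabp2*, the last no higher than in immune cells. The immune level depends on the cells used. Normal plasma-like cells had 86.5 CPM of *Fabp1* (75.5–98.6), 55.6 CPM of *Fabp2* (46.9–65.5) and 54.1 CPM of *Rbp2* (45.5–63.8).

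To order their onset, 463 normal cells of the *Olfm4*-led and enterocyte-like clusters with at least 1 axis UMI were ranked by the share of villus genes among villus and crypt genes, none of which is a member, and cut into 6 groups of 77 or 78 cells. *Olfm4* stood at 2318, 353, 10.5, 4.75, 2.21 and 3.07 CPM in the groups from first to last, while median depth stayed between 23909 and 26335 UMIs. The median mitochondrial share was lowest in the first group (7.88%) and highest in the third (14.7%), and its part in the order was not tested. Every gene was highest in the last group. The point at which a gene passed 50% of its highest level was read by interpolation, as a percent of the ranked cells.

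*Mttp* came first, at 50.3%, followed by *Rbp2* at 52.9%, *Fabp1* at 53.5% and *Apob* at 55.5%. *Fabp2* (58.9%) and *Apoa1* (59.4%) lay between, and the other surface apolipoproteins came last, *Apoc2* at 63.5%, *Apoa4* at 63.9% and *Apoc3* at 65.6%. Over 7 ways of building the order, the first 4 genes stayed ahead of the last 4 and *Fabp2* always held rank 5. Within these sets ranks changed: *Mttp* held ranks 1 to 2, *Apob* 1 to 4, *Rbp2* 2 to 3 and *Fabp1* 3 to 4, and *Apoa1* 6 to 7, *Apoa4* 6 to 8, *Apoc2* 7 to 9 and *Apoc3* 8 to 9. Neighbours in the order are therefore not distinguished. The cells come from 1 library, so the order has no replicate.

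The difference was plainest in the third group, where *Olfm4* had already dropped. There *Apob* stood at 166 CPM (146–188), 35.7% of its highest level, and *Mttp* at 352 CPM (323–383), 34.8%. *Rbp2* had reached 24.3%, *Fabp1* 18.6% and *Fabp2* 14.0%. *Apoc3* (7.85%), *Apoa1* (7.37%), *Apoa4* (5.70%) and *Apoc2* (2.24%) were still below 10% of their highest levels. *Apoc2* then went from 58.2 CPM (46.8–71.6) in the third group to 905 CPM (860–951) in the fourth.

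The genes also differed in the size of the rise from the first to the last group. *Apoa1* was 210-fold higher in the last group (52.4 and 11008 CPM), *Apoa4* 203-fold, *Rbp2* 188-fold, *Apoc3* 174-fold, *Apoc2* 137-fold and *Fabp1* 106-fold. *Fabp2* (37.7-fold), *Mttp* (33.7-fold) and *Apob* (24.4-fold) had the smallest folds. Levels in the first group include free RNA. *Fabp2* stood at 478 CPM (449–509) there, above its 153 CPM in immune cells. *Apoa1* (52.4 CPM), *Apoa4* (13.3 CPM), *Apoc2* (19.1 CPM) and *Rbp2* (100.5 CPM) were at or below their immune levels. Immune cells were shallower, with a median of 3183 UMIs against 26335 in the first group. In normal plasma-like cells *Apoa1* was at 52.1 CPM and *Apoa4* at 15.1 CPM, near the first group. *Apoc2* (7.34 CPM, 4.42–11.5) and *Rbp2* (54.1 CPM, 45.5–63.8) were lower there than in the first group. How far the folds depend on free RNA was not tested.

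**Figure D2:**
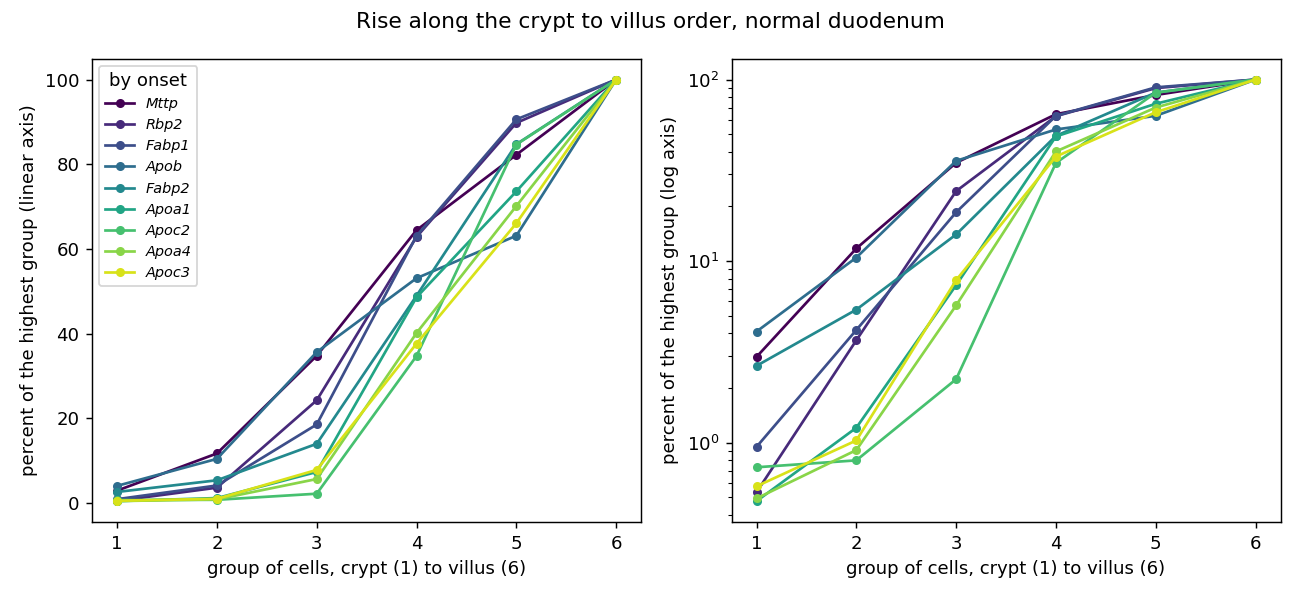
Level of each gene as a percent of its highest group (left linear axis, right log axis) over 6 groups of normal cells ranked from crypt (1) to villus (6), coloured by order of onset. *Mttp* and *Apob* stand at 34.8% and 35.7% in group 3, while *Apoa1*, *Apoa4*, *Apoc2* and *Apoc3* are under 10% there and reach their highest level in group 6 with the others.

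Mature enterocytes differed further along genes of the villus tip. The 201 enterocyte-like cells were cut into 3 groups of 67 by the summed level of 6 tip genes, with median depths of 25967, 24851 and 23840 UMIs from low to high. *Apoc2* was 4.79-fold higher (4.48–5.12) in the high than in the low group, *Apoa4* 2.87-fold (2.71–3.03) and *Apoc3* 2.20-fold (2.04–2.37). *Fabp2* (2.02-fold), *Apoa1* (2.02-fold) and *Apob* (1.91-fold) followed. *Fabp1* (1.55-fold), *Rbp2* (1.40-fold) and *Mttp* (1.27-fold, 1.18–1.38) differed least. The genes with the earliest onset were, apart from *Apob*, those with the smallest difference at the tip, and both readings come from the same cells. All tip genes but *Egfr* are also villus genes of the onset ranking, so the readings are not independent.

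Over these 201 cells, the correlation of log levels between members ranged from -0.18 to 0.83, with a median of 0.42 over 36 pairs. The 3 carriers formed the closest set, with 0.83 for *Fabp1* and *Fabp2*, 0.83 for *Fabp2* and *Rbp2*, and 0.73 for *Fabp1* and *Rbp2*. Of the apolipoprotein genes that lie close together, *Apoa1* and *Apoa4* reached 0.66. *Apoc3*, which lies between them, reached 0.49 with *Apoa1* and 0.49 with *Apoa4*. *Apob* and *Mttp* reached 0.51 with each other, while *Mttp* was at -0.18 with *Fabp1* and *Apob* at -0.16. These values describe cells of 1 library, share its depth and composition, and carry no test.

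In the polyp library most *Rbp2* and *Fabp2* UMIs lay in gastric-surface-like cells, a cluster of 560 polyp cells led by *Psca*, *Gsdma2* and *Muc5ac*. *Rbp2* stood at 785 CPM (767–802) there, against 39.9 CPM in polyp immune cells, and the cluster held 65.7% of all polyp *Rbp2* UMIs. *Fabp2* stood at 223 CPM (214–232), against 23.4 CPM, with 59.0% of its UMIs. Thinned to 1000 UMIs, 42.8% (38.5–47.1) of these cells had *Rbp2* and 16.2% (13.2–19.6) had *Fabp2*. *Fabp1*, *Apoa1*, *Apoa4* and *Apoc3* were seen in 0 of 538 thinned cells, where 3 cells would be 0.558% and the upper end of the interval is 0.683%, and *Apob* was seen in 0.929%. Without thinning, at a median of 16597.5 UMIs, *Fabp1* was seen in 21 of the 560 cells (3.75%), *Apob* in 64 (11.4%) and *Apoa1* in 1, and the cluster held 14.5% of polyp *Fabp1* and 14.2% of polyp *Apob* UMIs.

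Lower levels of *Rbp2* and *Fabp2* were present in further polyp clusters. A cluster led by the mitosis gene *Hmmr* (332 cells) had 233 CPM of *Rbp2* and 100.3 CPM of *Fabp2*, and a cluster led by *Chil4* (396 cells) had 208 and 63.2 CPM. The largest epithelial cluster of the polyp, led by *Serpina3n* (1518 cells), had 39.4 CPM of *Rbp2* (36.3–42.7) and 11.4 CPM of *Fabp2* (9.76–13.2), which did not exceed the levels in immune cells. The normal library held only 8 gastric-surface-like cells, with 1706 CPM of *Rbp2* (1551–1873) and 577 CPM of *Fabp2* (488–677). The cluster thus had a lower level in the polyp, but the free RNA level, which was higher in the normal library, moved the same way, and its part was not tested.

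**Figure D3:**
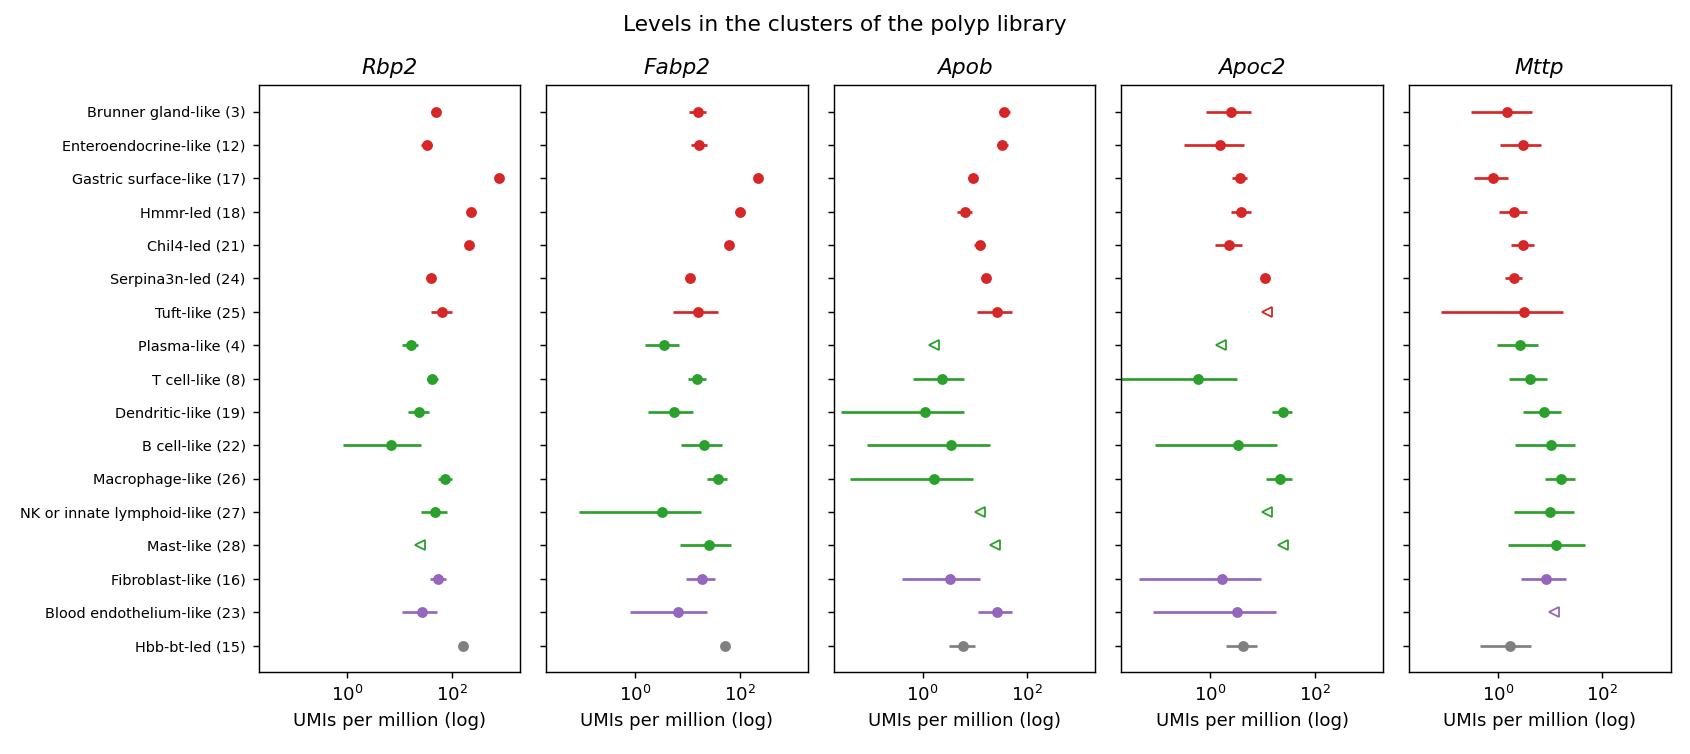
Levels of 5 genes (CPM, log axis) in the polyp library's clusters of at least 30 polyp cells (epithelial red, immune green, stromal purple, low-depth barcodes grey), with 95% counting intervals; triangles mark the upper end of the interval where 0 UMIs were counted. Among the clusters shown, *Rbp2* (785 CPM) and *Fabp2* (223 CPM) are highest in gastric-surface-like cells, *Apob* in Brunner-gland-like (36.5 CPM) and enteroendocrine-like cells (33.6 CPM), and *Apoc2* in dendritic-like (24.3 CPM) and macrophage-like cells (21.5 CPM).

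*Apob* had another distribution. Among polyp clusters of at least 30 cells, its level was highest in Brunner-gland-like cells, at 36.5 CPM (28.5–45.9) over 232 cells, and in enteroendocrine-like cells, at 33.6 CPM (26.0–42.7) over 351 cells, against 2.17 CPM in polyp immune cells. The Serpina3n-led cluster had 16 CPM (14.1–18.2) and gastric-surface-like cells 9.04 CPM (7.26–11.1). In Brunner-gland-like cells of the normal library (24 cells) *Apob* stood at 28.2 CPM, a ratio of polyp to normal of 1.29 (0.710–2.54). *Fabp1* in the same cluster had 30 UMIs in the normal and 0 in the polyp library. Those 30 UMIs were 65.2 CPM (44.0–93.0), below the 194 CPM of *Fabp1* in normal immune cells. A loss of *Fabp1* from these cells is therefore not shown. *Apob* UMIs were spread over many polyp cells, with at most 7 in a cell and 626 in 470 cells.

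*Apoc2*, which macrophages are also known to express, was highest in myeloid cells among polyp clusters of at least 30 cells. Dendritic-like cells had 24.3 CPM (15.2–36.7, 22 UMIs) and macrophage-like cells 21.5 CPM (11.5–36.8, 13 UMIs), against 0.596 CPM (1 UMI) in T-cell-like cells. The Serpina3n-led cluster had 11.4 CPM (9.76–13.2) and held 173 of the 305 polyp *Apoc2* UMIs. *Mttp* was, among these clusters, highest in macrophage-like cells as well, at 16.5 CPM (7.93–30.4), but from 10 UMIs, and stood at 0.813 CPM (0.351–1.60) in gastric-surface-like cells. Levels of a few UMIs such as these are bounded mainly by counting.

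*Fabp1*, *Apoa4* and *Apoc3* were held in the polyp library by very few cells. The *Olfm4*-led cluster took in 19 polyp cells with a median of 2650 UMIs, against 23972 UMIs in the 263 normal cells of the cluster. None of the 19 had an *Olfm4* UMI, whereas each carried UMIs of the 9 genes, 314 in all, between 2 and 36 per cell. With the 2 enterocyte-like polyp cells (148 UMIs), these 21 cells held 84.6% of the polyp *Apoc3*, 68.8% of the *Apoa4*, 51.7% of the *Fabp1* and 32.5% of the *Apoa1* UMIs, but 2.32% of the *Fabp2* and 0.970% of the *Rbp2* UMIs. In the 19 cells *Mttp* stood at 157 CPM, *Apob* at 94.4 CPM, *Fabp2* at 1054 CPM and *Rbp2* at 1400 CPM, each above its level in every polyp cluster of at least 30 cells. Without the 21 cells the fold of Epcam-positive cells was 7058 for *Apoa4*, 7669 for *Apoc3* and 4215 for *Fabp1*. These folds are given without an interval. For *Apoa4* and *Apoc3* they rest on fewer polyp UMIs than the 14 and 10 of the full Epcam-positive set. Some of the 19 cells had no *Epcam* UMI, so they were not part of the Epcam-positive comparison. None of the 19 barcodes was present in the normal library.

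Within that cluster the ratio of polyp to normal level differed by member. *Rbp2* stood at 1400 CPM in the polyp and 1464 CPM in the normal cells, a ratio of 0.956 (0.767–1.18), *Mttp* at 157 and 153 CPM, and *Fabp2* at 1054 and 1204 CPM, a ratio of 0.876 (0.678–1.11). *Fabp1* was at 1322 and 1794 CPM, a ratio of 0.737 (0.587–0.913), and *Apoa1* at 755 and 234 CPM, a ratio of 3.23 (2.37–4.31). The 48 polyp *Apoa1* UMIs lay in 9 of the 19 cells, with 15 and 13 in single cells, a spread that the counting interval leaves out. *Apoc3* had a ratio of 3.005 (1.09–6.67) from 6 polyp UMIs. *Apoa4* (1.68, 0.4545–4.37) and *Apob* (1.28, 0.468–2.82) had intervals that held 1. *Apoc2* had 0 UMIs in the 19 polyp cells, where the upper end of the interval is 58.0 CPM, and 27.6 CPM in the normal ones. The interval of its ratio (0–2.13) held 1, so a lower level was not shown. The intervals that hold 1 do not show that the levels were alike, and the depth of the cells differed between the libraries.

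Other genes of lipid handling were lower less widely. The 8 lists of 62 genes in all gave 58 with at least 20 UMIs. Of these, 41 were lower and 7 higher past 1.5-fold with intervals clear of 1. Over all genes 18.7% were lower and 27.1% higher, and these shares belong beside each list count below. The 9 genes had a median log2 ratio of -7.18, and no list reached it. Leaving mitochondrial and the 50 most abundant genes out of the scaling moved the median of all genes by 0.16 on the log2 scale and left the counts of 41 and 7.

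All 10 of 10 genes of triglyceride resynthesis and droplets were lower, with a median log2 ratio of -1.80. *Mogat2*, which re-esterifies monoglyceride, was at 88.1 and 7.47 CPM, 11.8-fold lower (10.5–13.4), and *Dgat1*, which makes triglyceride from diglyceride, at 198.5 and 22.4 CPM, 8.87-fold lower. *Agpat2* was 3.91-fold lower. *Pnliprp2*, a lipase, was 17.0-fold lower, but in normal immune cells (55.8 CPM) it stood above every group of the crypt to villus order (4.75 to 11.9 CPM).

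Of 8 genes of chylomicron assembly and export, 5 were lower, 1 was higher and 2 met neither call, with a median of -1.32. *Prap1*, which interacts with the transfer protein in lipid loading, was at 3654 and 125 CPM, 29.2-fold lower (28.4–30.03). *Tm6sf2*, needed for lipidation of apolipoprotein B particles, was at 116 and 1.80 CPM, 64.4-fold lower (51.4–81.7). *P4hb*, the other subunit of the transfer protein complex and a general folding enzyme, was 1.96-fold lower (1.91–2.01), against 145-fold for *Mttp*.

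Of 9 genes of fatty acid uptake and activation, 4 were lower, 1 higher and 4 neither, with a median of -0.51. *Slc27a2*, a fatty acid transport protein, was at 31.1 CPM and 12 UMIs, 114-fold lower (64.5–221). *Acsl5*, which activates fatty acids, was at 274 and 41.4 CPM, 6.63-fold lower. *Fabp6*, the ileal bile acid binding protein, had 29 and 5 UMIs. *Dbi*, which binds acyl-CoA in most cells, stood at 2017 and 1668 CPM and met neither call.

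Of 6 genes of cholesterol handling, 4 were lower, 1 higher and 1 neither, with a median of -2.63. *Npc1l1*, the cholesterol uptake transporter, was at 41.1 and 0.434 CPM, 94.6-fold lower (60.1–158). *Abcg8*, of the pair that returns sterol to the lumen, was 11.8-fold lower (9.07–15.5). *Acat2*, the cytosolic thiolase, stood at 20.7 and 19.96 CPM.

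Retinoid genes went both ways. Of 6 measured, 4 were lower and 2 higher, with a median of -2.78, beside 18.7% lower and 27.1% higher of all genes. *Isx*, an intestinal repressor of vitamin A uptake, was at 33.2 and 0.868 CPM, 38.3-fold lower (27.5–54.7). *Rbp4*, the secreted retinol carrier, was at 1.26 and 44.8 CPM, 35.7-fold higher (23.0–58.5).

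The other apolipoproteins also went both ways. Of 6 measured of 9, 3 were lower, 2 higher and 1 neither, with a median of -0.80. Of all genes 18.7% were lower and 27.1% higher, so the 2 higher genes were near that share. *Clu*, clusterin or apolipoprotein J, was at 153 and 6001 CPM, 39.3-fold higher (37.8–40.9). *Apoe* was at 45.8 and 74.1 CPM, 1.62-fold higher (1.49–1.76), but stood far higher in immune cells, at 295 and 1508 CPM. *Apol7a* was 4.05-fold lower (3.33–4.95).

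Of 8 regulators of lipid genes, 7 were lower, none was higher and 1 met neither call, with a median of -2.77. *Creb3l3*, a membrane-bound factor known from mouse liver to act on *Apoa4* and *Apoc2*, was at 139.5 and 1.07 CPM, 130-fold lower (97.4–177). *Cdx2*, a factor of intestinal identity, was at 49.8 and 2.35 CPM, 21.2-fold lower (17.2–26.3). *Hnf4a* was at 85.7 and 27.5 CPM, 3.12-fold lower (2.89–3.38), and *Gata4* at 46.3 and 36.6 CPM met neither call. Along the normal order *Creb3l3* went from 4.29 CPM in the first group to 196 in the third and 385 in the last, while *Hnf4a* stayed between 99.5 and 131 CPM and *Cdx2* between 46.1 and 84.8 CPM.

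The lipases and colipase of the exocrine pancreas formed the list with the lowest median, -5.80, with 4 of 5 lower and none higher. *Pnlip* was at 1185 and 18.9 CPM, *Pnliprp1* at 384 and 5.16 CPM, and *Clps* at 3290 and 892 CPM. They were in normal immune cells too, *Clps* at 1805 CPM and *Pnlip* at 942 CPM, and acinar-like cells numbered 134 in the normal and 7 in the polyp library, so their difference among Epcam-positive cells moved with cells and free RNA of another tissue, whose part was not tested.

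**Figure D4:**
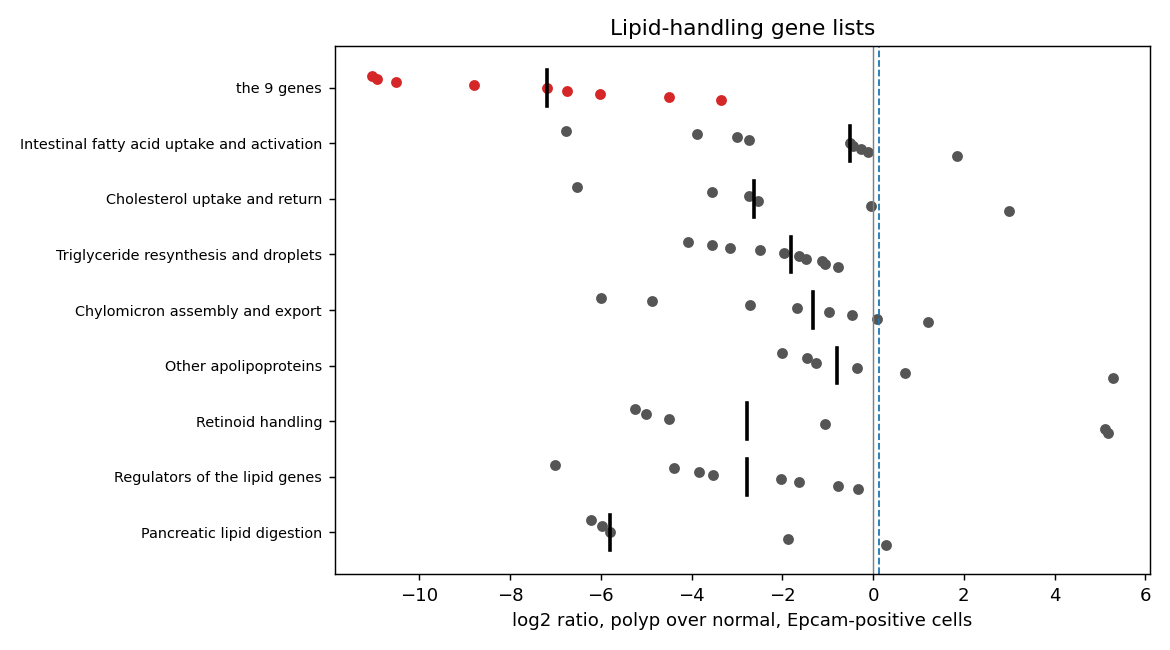
Log2 ratio, polyp over normal, in Epcam-positive cells for the 9 genes (red) and for each gene of 8 lists (grey), with the list median as a black bar; the dashed line is the median over all genes (0.14) and the solid line 0. The 9 genes have a median of -7.18, and the list medians lie between -5.80 and -0.51.

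The genes whose pattern was most like the mean of the 9 were sought over 28 pairs of cluster and library with at least 30 cells, by Pearson correlation of log levels. *Sult6b2*, a sulfotransferase, came first with 0.98, then *Sis* (sucrase-isomaltase, a brush-border disaccharidase) with 0.97, *Mep1b* (a brush-border metalloprotease) and the predicted gene *Gm5485* with 0.96 each, and *Clca4b*, *Nlrp6* and *Adh6a* with 0.95 each. *Arg2* and *Creb3l3* (0.94 each) and *Tkfc* (0.93) completed the first 10. Among the 9 genes themselves this measure was highest for *Apoc3* and *Fabp1* (0.97 each) and lowest for *Apob* (0.77), *Rbp2* (0.85) and *Mttp* (0.86). The units share libraries and cells of like types, so the values describe a pattern and carry no test. *Sis* stood at 450 CPM in normal Epcam-positive cells and had 3 UMIs in the polyp ones.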

How the data were processed

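The authors deposited 1 matrix per library of raw counts of UMIs for each gene and barcode, per the file headers, and all entries are whole numbers. Libraries were made with the 10x Genomics 3′ v3 chemistry, per the labels' protocols. The submitters' processing notes name Cell Ranger 3.0.0 and mm10, whereas the matrix header gives Cell Ranger 5.0.0, and the annotation release is not given in the sources used here. Barcodes were kept with at least 500 UMIs, 250 genes and at most 25% of UMIs from 13 mitochondrial genes. Scrublet (scanpy 1.11.5) marked 0 barcodes by its automatic threshold, so the highest scores were removed at 0.8% per 1000 cells (85 and 573 barcodes), a choice made after the scores had been seen.

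Cells of both libraries were clustered together (2000 variable genes without the 9 genes, 30 components, 15 neighbours, Leiden resolution 1, seed 1). Clusters were called "like" a type from fixed markers. No cluster met the crypt rule, so the Olfm4-led cluster served as the crypt end. The Serpina3n-led cluster scored nearest to Brunner gland by that rule and is named by its leading gene. Levels are summed UMIs per 1000000 UMIs (CPM) with exact Poisson intervals, ratios have exact conditional binomial intervals and shares Clopper-Pearson intervals, at the 95% level. No adjustment for free RNA was made.

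The 9 genes and all lists were chosen with earlier results of these data known. All 9 genes are named, and of each list the 2 genes with most UMIs and the 2 with the ratio farthest from 1, except 1 gene that is not reported here. The alternatives were other filters, gates, scalings, orders and resolutions. Positions came from GENCODE, matched by gene identifier. Software was Python 3.11.15, numpy 2.4.6, scipy 1.17.1, pandas 2.3.3, anndata 0.12.19, igraph 0.11.9 and matplotlib 3.10.9.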

Additional observations from a re-analysis of the deposited data

Results flagged for a closer look

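Epcam-positive barcodes over the mitochondrial limit, which the main comparisons left out and only the alternatives without that limit or with a higher one used, carried the 9 genes too. Their summed level was 7651 CPM (7598–7704) in 2732 normal barcodes and 238 CPM (221–255) in 1247 polyp barcodes, above the limit that a count of 0 allows. The median mitochondrial share of these barcodes was 49.5% and 43.2%. In the normal ones *Apob* stood at 265 CPM and *Mttp* at 348 CPM, against 140 and 328 CPM in kept cells, whereas *Fabp1* was at 1282 against 7709 CPM and *Apoc3* at 85.6 against 351 CPM. Counted without mitochondrial UMIs, *Apob* was at 524 against 154 CPM, *Apoa1* at 4399 against 3069 CPM and *Mttp* at 689 against 362 CPM, while *Fabp1* was at 2536 against 8493 CPM and *Rbp2* at 3247 against 6399 CPM. The mix of the 9 genes thus differed between kept and excluded barcodes of the normal library, and the cause was not tested.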

How the results depend on the processing

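All 9 genes were lower in the polyp Epcam-positive cells, and in the share of such cells, under every alternative run. Of 117 gene ratios under alternatives, 77 stayed within the counting interval of the main value, 40 moved outside it and 0 reversed. The *Apob* fold ranged from 9.17 to 13.7, that of *Rbp2* from 16.8 to 25.6 and that of *Fabp2* from 46.2 to 72.1. The onset gap, the median of the 5 later genes less the median of the 4 earlier ones, was 10.3 percentage points, and was 5.77 over all normal Epcam-positive cells and 2.60 over these without a mitochondrial limit, both sets that hold other cell types. The split into earlier and later genes was taken from the main order, so the gap in that order is positive by construction. Leaving out the polyp cells of the *Olfm4*-led and enterocyte-like clusters, the 1 polyp cell with most *Apoa1* UMIs, or the rRNA-repeat barcodes were alternatives chosen after seeing the data. No paired analysis was possible because each group has 1 library, and no replicate could be left out. Depth limits *Apoa4* and *Apoc3*, with 14 and 10 polyp UMIs, most.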

Other observations

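The polyp cell with the most *Apoa1* UMIs also carried 132 UMIs of *Atp4a* and 145 of *Atp4b*, the subunits of the gastric proton pump that mark parietal cells. Among polyp barcodes with at least 500 UMIs and 250 genes, whatever their mitochondrial share, 5 had at least 10 UMIs of this pair, and all 5 carried *Apoa1*, with 137, 10, 8, 6 and 1 UMIs or 8820, 1361, 249, 1011 and 1006 CPM. Fabp1, Fabp2 and Rbp2 had at most 1 UMI each in any of these barcodes. The normal library held 0 such barcodes, with at most 2 UMIs of the pair in any barcode. This set was singled out after its values were seen, 2 of the 5 barcodes were over the mitochondrial limit, and the number of barcodes is too small for more than a description.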
